A study of Mus musculus with 12 samples.

Results

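The genotype by DMXAA interaction was measured in bone marrow-derived macrophages of the mouse, as the difference between the response of MGMT knockout cells and the response of wild-type cells to the same agonist. All 12 libraries of the series enter it, because it needs all 4 groups of 3: wild type with the vehicle DMSO, MGMT KO with DMSO, wild type with DMXAA, and MGMT KO with DMXAA. The wild type is given in the labels as Wild-type (WTfl/fl) and the knockout as MGMT KO. Exposure lasted 24 h, at a DMXAA concentration that the design text gives as 10 mg/ml, a unit that could not be checked and may be a misprint. The labels name no Cre driver, no age and no number of mice, and they do not say that the 3 libraries of a group came from separate animals, so each p-value below measures only the spread between these libraries. A gene was a member if it was listed in both the DMSO table and the DMXAA table and its normalized counts averaged 10 or more across the 12 columns, which 12729 of the 14868 genes listed in both tables did, out of 16516 symbols in any deposited table.

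DMXAA is a small molecule that binds mouse STING, the endoplasmic reticulum adaptor which normally answers to cyclic GMP-AMP made by the DNA sensor cGAS. Active STING recruits the kinase TBK1, which phosphorylates the transcription factor IRF3, and the secreted type I interferon then acts back on the cell through JAK-STAT signalling, which ends at interferon-stimulated response elements. STING also feeds NF-kappaB. MGMT is a repair protein that removes alkyl groups from the O6 position of guanine in DNA. The interaction asks whether these responses had the same size in both genotypes. It takes the genotype difference (KO minus WT) seen with DMXAA and subtracts the one seen with DMSO, in log2 of the normalized count plus 1, which equals the log2 response of KO minus the log2 response of WT. A positive value means a more positive response in KO, whether the gene went up or down with DMXAA. A value of 1 means that the ratio of KO to WT was 2 times as large under the agonist as under vehicle.

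Promoters of genes on which the results turn are shown first, because 35 of the positive interactions that passed the test belonged to interferon-stimulated genes. The sequences come from the RefSeq table of build GRCm38.p6 and run 5′ to 3′ on the gene's strand over the 250 bases before the annotated start, with matches in capitals on either strand. The first 4 hold the core of an interferon-stimulated response element, which is GAAA, 2 bases of any kind, and GAAA again. Oas3, Ifit1 and Tgtp2 had a positive interaction that passed the test and Igtp did not. Mcm6, which encodes a subunit of the replicative helicase, shows 2 copies of the E2F letters TTTGGCGC. Hspa1a, the inducible heat shock protein 70, shows the heat shock letters GAANNTTC.
Oas3, chr5:120777660-120777909, minus strand: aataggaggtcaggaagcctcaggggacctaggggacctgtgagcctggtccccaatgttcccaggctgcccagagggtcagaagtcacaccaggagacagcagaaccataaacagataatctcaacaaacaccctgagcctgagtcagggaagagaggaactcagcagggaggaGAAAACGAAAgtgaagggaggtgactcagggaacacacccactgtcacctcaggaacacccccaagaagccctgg
Ifit1, chr19:34640639-34640888, plus strand: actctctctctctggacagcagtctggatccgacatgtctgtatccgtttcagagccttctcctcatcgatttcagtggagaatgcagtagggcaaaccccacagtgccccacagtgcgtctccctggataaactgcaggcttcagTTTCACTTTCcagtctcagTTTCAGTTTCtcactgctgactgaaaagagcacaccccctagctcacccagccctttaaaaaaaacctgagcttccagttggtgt
Tgtp2, chr11:49064213-49064462, minus strand: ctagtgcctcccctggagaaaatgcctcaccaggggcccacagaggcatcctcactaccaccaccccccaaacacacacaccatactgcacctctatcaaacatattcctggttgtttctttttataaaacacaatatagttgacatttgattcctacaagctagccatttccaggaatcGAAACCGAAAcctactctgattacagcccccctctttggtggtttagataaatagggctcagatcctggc
Igtp, chr11:58199306-58199555, plus strand: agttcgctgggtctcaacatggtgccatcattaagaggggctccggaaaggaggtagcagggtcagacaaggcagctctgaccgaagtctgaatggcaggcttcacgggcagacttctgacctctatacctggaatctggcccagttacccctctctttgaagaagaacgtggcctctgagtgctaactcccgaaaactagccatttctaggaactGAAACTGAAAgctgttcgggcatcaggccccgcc
Mcm6, chr1:128359706-128359955, minus strand: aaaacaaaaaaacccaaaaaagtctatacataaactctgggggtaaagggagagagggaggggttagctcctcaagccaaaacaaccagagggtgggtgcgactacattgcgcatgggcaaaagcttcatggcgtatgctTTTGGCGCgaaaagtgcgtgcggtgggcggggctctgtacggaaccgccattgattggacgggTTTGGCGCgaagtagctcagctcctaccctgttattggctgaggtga
Hspa1a, chr17:34972157-34972406, minus strand: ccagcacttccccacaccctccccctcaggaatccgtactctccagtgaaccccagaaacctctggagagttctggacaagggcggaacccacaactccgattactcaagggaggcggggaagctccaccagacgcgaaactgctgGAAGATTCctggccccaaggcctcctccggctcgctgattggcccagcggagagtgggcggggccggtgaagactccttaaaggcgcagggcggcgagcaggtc

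Over the full windows of the table, which also hold the 50 bases after the start, the response element letters were found in 1131 of 32851 promoters (3.44%). Among promoters of the tested genes the share was 3.37%. Among the 52 interferon-stimulated genes tested, 43 had a promoter in the table, and 23 of their 53 promoters (43.4%) held the letters. The E2F letters, TTTCCCGC or TTTGGCGC, were found in 1.56% of all promoters and in 2.92% of those of tested genes. They were in 16 of 49 promoters (32.7%) of the 41 DNA replication genes that had one. The heat shock letters were in 7.86% of all promoters. Matches were sought on both strands, and a match of one kind may overlap a match of another. A match is a description of the letters, and Igtp and Oas3 both carry them while differing in their interaction.

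The libraries held 79482003 to 98135869 reads, and the 3 KO libraries under DMXAA (94083827 or more) were deeper than the 9 others. The labels give 1 batch for all libraries. Mgmt itself had 263, 245 and 243 reads in WT under DMSO and 121, 141 and 162 in KO, and 107, 85 and 99 reads in WT under DMXAA against 51, 61 and 33 in KO. Reads of Mgmt were thus lower in each KO library than in each WT library of the same treatment, but were present in all, and its interaction of -0.28 (SE 0.31, adjusted p = 0.67) did not pass the test. The labels do not say which part of the gene was deleted. Defining macrophage markers summed to 9891 to 10217 RPM (reads per 1000000 reads of the library) in WT and 10061 to 10209 in KO under DMSO, and to 7631 to 7681 and 7307 to 7435 under DMXAA. Of the neutrophil markers, 8 of 9 were listed, and they summed to 5.50 to 7.84 RPM in WT and 0.744 to 1.28 in KO under DMSO, and to 2.72 to 3.09 and 0.774 to 0.834 under DMXAA. Monocyte markers (all 5 listed) summed to 36.6 to 43.5 in WT and 38.4 to 41.4 in KO under DMSO, and to 411 to 433 and 262 to 339 under DMXAA, and dendritic cell markers (6 of 6) to 15.6 to 17.8, 25.4 to 26.7, 9.61 to 11.2 and 12.8 to 14.8 in the same order. Endothelial and megakaryocyte markers (4 of 4) summed to 14.2 to 19.1, 7.87 to 8.42, 8.32 to 11.1 and 4.71 to 5.90 RPM in that order, and stromal markers (5 of 5) to 0.381 to 0.830, 0.947 to 5.39, 0.151 to 0.614 and 0.459 to 0.850. A sum follows its most abundant members, and single markers can differ from it. Of the 5 monocyte markers, KO was below WT in 3 under DMSO and 3 under DMXAA, and 4 had a positive interaction. Of the 3 dendritic cell markers tested, KO was below WT in 2 under DMSO and 1 under DMXAA. The part of these cell types in the results below was not tested. In these bulk samples fewer cells of a type and less RNA per cell cannot be told apart.

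The interaction passed an adjusted p of 0.05 (limma, Benjamini-Hochberg over all tested genes) in 1095 of 12729 genes (8.6%). It was positive in 683 (5.37%) and negative in 412 (3.24%), and an unadjusted p below 0.05 was reached by 2794. Among the positive calls 99 reached a size of at least 1, and among the negative calls 64 did. The median was 0.47 over the positive calls, -0.49 over the negative calls and 0.00 over all genes, with a median standard error of 0.12. Without the DMSO library KO replicate 1 the negative calls numbered 271. When all libraries were rescaled to the same total, the split turned to 482 positive and 748 negative, so that positive calls made up 39.2% in place of 62.4%, with the median of all genes moved to -0.07.

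**Figure D1:**
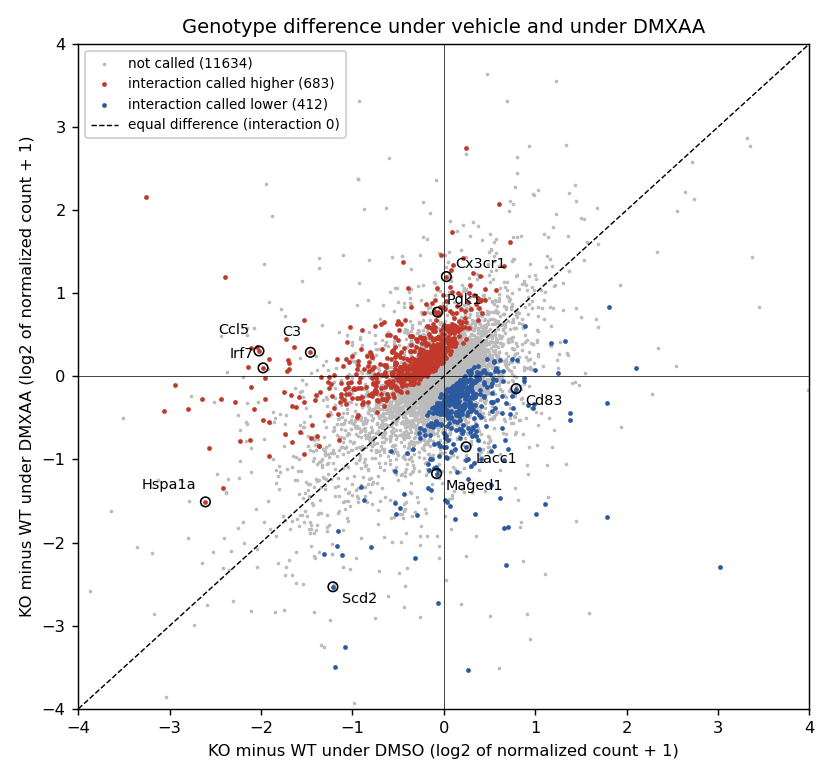
KO minus WT under DMSO (horizontal) and under DMXAA (vertical), both in log2 of normalized count plus 1, for each tested gene as a point. Points above the dashed line have a positive interaction, and the 683 positive calls lie mostly left of zero with Irf7, C3 and Ccl5, while Pgk1 and Cx3cr1 lie near zero on the horizontal axis; 11 genes lie outside the plotted range.

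The 2 differences that make up each interaction describe the called genes further. Genes were called on the gap between these same differences, which favours KO on opposite sides of WT and little overlap. Counts of this kind, here and in the lists below, are thus descriptions, and crossing was not counted over all tested genes. Of the 683 positive calls, KO was below WT under both treatments with a smaller gap under DMXAA in 159, above WT under both with a larger gap in 105, and on opposite sides of WT under the 2 treatments in 419. The vehicle difference was the larger of the 2 in 397 of them and the DMXAA difference in 286. Of the 412 negative calls the DMXAA difference was the larger in 272, KO changed sides in 297, and the gap below WT widened in 81. By mean response, 378 of the positive calls were up with DMXAA in both genotypes and more so in KO, 182 were down in both and less so in KO, and 123 were up in KO and down in WT. The negative calls were down in both and more so in KO for 204 genes, up in both and less so in KO for 126, and down in KO and up in WT for 82. KO and WT libraries overlapped under DMXAA for 178 of the positive and 72 of the negative calls, where 62.8% of all tested genes did.

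The scale of the difference matters. An interaction in log2 compares ratios, and the same values compared as differences in RPM gave the opposite sign in 89 of the 683 positive and 11 of the 412 negative calls. Of the 35 interferon-stimulated genes called positive, 25 had a negative difference of differences in RPM. In those genes the KO to WT ratio moved closer to 1 while the gap in reads grew. A negative value in RPM was also found for positive calls of other lists, among them Mlkl, Cfb, Ccl8, Zbp1, Tpx2, Stat2 and H2-Q6.

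Interferon-stimulated genes carry out the antiviral program downstream of the interferon receptor. Of the 52 listed genes tested, 35 (67.3%, against 5.37% over all tested genes) had a positive interaction past the threshold and none a negative one, and the point estimate was positive in 51. No member had a negative interaction at an unadjusted p below 0.05 in limma, nor at an adjusted p below 0.05 in edgeR or DESeq2. Their median interaction was 0.49, against 0.00 over all genes. The median KO minus WT difference was -0.62 under DMSO and -0.13 under DMXAA, so the list was lower in KO under vehicle and nearer to WT under the agonist. In 26 of the 35 called genes KO stayed below WT under both treatments, in 9 it changed sides, and all 35 had a positive mean response in both genotypes. In 17 of the 35 the KO and WT libraries overlapped under DMXAA, and in none did they under DMSO. Over all tested genes they did in 62.8% under DMXAA and in 65.3% under DMSO.

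Oas3, which makes the second messenger that activates RNase L, had the smallest p of the list. Its normalized counts under DMSO were 6832, 6698 and 6443 in WT and 3815, 3931 and 3947 in KO, and under DMXAA they were 51440, 53270 and 53999 in WT and 50342, 48808 and 50345 in KO. KO lay below WT under both treatments without overlap, and with a KO to WT ratio nearer to 1 under DMXAA. The interaction was 0.69 (SE 0.05, adjusted p = 7.2e-06), with a mean log2 response of 3.27 in WT and 3.96 in KO. In RPM the sign was the opposite, at -20.1. The DMSO and DMXAA tables were scaled separately by the authors, so counts are compared here within a treatment only, and each response comes from the table of its genotype.

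Oasl1, an inhibitor of Irf7 translation, had 1365, 1013 and 1176 normalized counts in WT and 287, 260 and 365 in KO under DMSO, and 67827, 72475 and 68101 against 54099, 60183 and 58328 under DMXAA. Its interaction was 1.69 (SE 0.16, adjusted p = 2.0e-05), and its libraries did not overlap in either treatment. Ifit1, which binds foreign RNA caps and whose promoter is shown above, had means of 509 in WT and 257 in KO under DMSO and 20132 and 18229 under DMXAA, an interaction of 0.84 (SE 0.13, adjusted p = 0.00096). Isg15, the ubiquitin-like modifier, gave 0.48 (SE 0.11, adjusted p = 0.011), Rsad2, the antiviral enzyme viperin, 0.60 (SE 0.16, adjusted p = 0.027), and Mx1, a GTPase that restricts viruses, 0.86 (SE 0.18, adjusted p = 0.0097). Rsad2 lost its call when WT DMSO replicate 1 or 3, KO DMSO replicate 2, WT DMXAA replicate 1 or 3, or KO DMXAA replicate 3 was left out. Genes of the Oas, Ifit, Slfn and Mx groups have close copies, and the treatment of their shared reads is not stated.

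The factors that carry the interferon signal were split by member. Of 26 interferon, receptor and JAK-STAT genes tested, 6 (23.1%) were called positive, among them Irf7, Stat2, Irf8, Usp18 and Irf9. Usp18 is also counted in the list of interferon-stimulated genes. Irf1 and Ptpn6 were the 2 negative calls (7.69%), against 5.37% positive and 3.24% negative over all tested genes. The list median was 0.02 and turned to -0.05 when libraries were rescaled to the same total. Irf7 (chr7:141262706-141266481, minus strand), the factor that amplifies type I interferon, had the largest interaction among these. Its normalized counts were 29013, 26027 and 22131 in WT and 6269, 5762 and 7559 in KO under DMSO. Under DMXAA they were 597830, 614517 and 600716 in WT and 634880, 664400 and 647315 in KO. KO was thus far below WT under vehicle and slightly above every WT library under DMXAA. The interaction of Irf7 was 2.08 (SE 0.13, adjusted p = 4.6e-07), a 4.23-fold change of the KO to WT ratio, and the difference in RPM had the same sign.

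Stat2, a signal carrier of type I interferon, gave 0.45 (SE 0.06, adjusted p = 0.00032), Irf9 0.33 (SE 0.09, adjusted p = 0.039) and Usp18, the interferon-induced protease that damps receptor signalling, 0.74 (SE 0.13, adjusted p = 0.0033). Irf9 was not past the threshold in either fit with a replicate block, after rescaling to the same total, or in 9 of the 12 fits with 1 library left out. Irf1, induced by interferon gamma and NF-kappaB, went the other way. Its normalized counts were 8685, 8769 and 8287 in WT and 9661, 9373 and 9227 in KO under DMSO, and 31385, 32101 and 31610 against 27795, 28049 and 28917 under DMXAA. KO lay above all WT libraries under vehicle and below them under DMXAA, and the interaction was -0.30 (SE 0.05, adjusted p = 0.0028).

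The cGAS-STING list held 26 tested genes, of which 10 (38.5%, against 5.37% over all tested genes) were called positive. Of these 10, 7 had a positive mean response in both genotypes, with WT responses of 5.21 for Zbp1 and 3.22 for Ifi204. Zbp1 is also counted among the cell death genes, and Ifi203, Ifi204 and Mndal again in the PYHIN family below. Only Ikbke, the kinase IKK-epsilon, was called negative (3.85%, against 3.24%), at -0.30 (adjusted p = 0.0097). The list median was 0.09, and 0.02 when libraries were rescaled to the same total. Sting1, the target of DMXAA, had 5989, 6112 and 6296 normalized counts in WT and 4392, 4355 and 4924 in KO under DMSO, and 9047, 8509 and 8761 against 8822, 8531 and 8168 under DMXAA. Sting1 was lower in all KO libraries under vehicle and overlapped with WT under DMXAA, and its interaction was 0.39 (SE 0.08, adjusted p = 0.0053). Cgas gave 0.47 (SE 0.11, adjusted p = 0.015), with the KO mean below WT under DMSO and above it under DMXAA. Samhd1, a dNTP hydrolase, gave 0.37 (SE 0.05, adjusted p = 0.00036). Zbp1, a sensor of Z-form nucleic acid, gave 0.56 (SE 0.09, adjusted p = 0.0015), with KO below WT in both treatments and the opposite sign in RPM, at -80.7. The DNA-binding Ifi203, Ifi204 and Mndal gave 0.58, 0.54 and 0.51. The kinase Tbk1 gave 0.11 (SE 0.07, adjusted p = 0.35) and the transcription factor Irf3 -0.05 (SE 0.08, adjusted p = 0.80), and neither passed the test.

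Interferon-inducible GTPases attack the membranes around intracellular microbes. Of 18 tested, 8 (44.4%, against 5.37% over all tested genes) were called positive, and the list median was 0.45. None was called negative (3.24% over all tested genes), also at an unadjusted p below 0.05 and with edgeR or DESeq2. In 7 of the 8 KO stayed below WT under both treatments and the gap in RPM grew. Tgtp2 had 460, 433 and 510 normalized counts in WT and 140, 168 and 133 in KO under DMSO, and 42645, 43910 and 40656 against 34620, 35948 and 38235 under DMXAA. KO lay below WT without overlap in both, and the interaction of Tgtp2 was 1.44 (SE 0.12, adjusted p = 8.2e-06). Its near-identical neighbour Tgtp1 gave 1.34 (SE 0.16), and reads may have been split between them, so neither value is certain for a single copy. Gvin1, a very large GTPase, gave 0.68 (SE 0.07, adjusted p = 5.4e-05). Igtp, with the response element letters in its promoter, had means of 659 in WT and 579 in KO under DMSO and 9919 and 7893 under DMXAA, and its interaction of -0.15 (SE 0.13, adjusted p = 0.57) did not pass.

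Of 25 MHC class I genes tested, 3 (12%) were called positive and 2 (8%) negative, against 5.37% positive and 3.24% negative over all tested genes. B2m, the light chain of class I molecules, gave 0.52 (SE 0.08, adjusted p = 0.00091), with means of 91841 and 67092 in WT and KO under DMSO and 218397 and 227551 under DMXAA. H2-T24 gave 0.77 (SE 0.11) and H2-Q6 0.70 (SE 0.13), both from families of close copies. Tap2, a subunit of the peptide transporter, gave -0.28 (SE 0.07, adjusted p = 0.016). Of 11 class II genes, 2 (18.2%) were called positive and none negative. Their median interaction was 0.01, which changed sign in 9 of the alternative fits, and 5 of the 11 had a negative estimate. The median KO minus WT difference was -0.09 under DMSO and -0.56 under DMXAA. The calls were Ctss, the protease that trims the invariant chain, at 0.30 (SE 0.06, adjusted p = 0.0034) and Cd74, the invariant chain itself, at 0.39 (SE 0.11, adjusted p = 0.04). Cd74 did not pass with a replicate block by title number, after rescaling to the same total, or in 10 of the 12 fits with 1 library left out.

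Chemokines recruit other leukocytes. Of 20 tested, 7 (35%) were called positive and 2 (10%) negative, against 5.37% and 3.24% over all tested genes, with a median of 0.40. Ccl5, which attracts T cells and monocytes, had 1074, 1150 and 1839 normalized counts in WT and 261, 391 and 329 in KO under DMSO, and 190128, 202020 and 221139 against 231575, 249624 and 277712 under DMXAA. KO lay below every WT library under vehicle and above every one under DMXAA. The interaction of Ccl5 was 2.33 (SE 0.24, adjusted p = 4.7e-05), a 5.03-fold change of the KO to WT ratio. Ccl2, the main monocyte attractant, had 343, 280 and 230 in WT and 72.1, 65.8 and 51.5 in KO under DMSO, and 3855, 4484 and 4052 against 4235, 5170 and 4044 under DMXAA. Its libraries overlapped under DMXAA, and the interaction was 2.26 (SE 0.21, adjusted p = 1.9e-05).

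Cxcl9, an attractant of activated T cells, was close to the limit of detection under vehicle. All 3 KO libraries together held 3 reads of it under DMSO and the WT libraries 37, a KO to WT ratio of 0.0824 (95% counting interval 0.0163 to 0.260). Under DMXAA the KO libraries held 40173 reads and the WT libraries 16531, a ratio of 2.23 (2.19 to 2.27). The KO DMXAA libraries were thus above the WT ones by a margin that does not rest on the few reads under vehicle, while the fitted interaction of 3.59 (SE 0.63, adjusted p = 0.0025) does. Intervals and limits of this kind cover counting error only. Ccl8 and Ccl7, both monocyte attractants, gave 2.65 (SE 0.39) and 2.46 (SE 0.40) from low means under DMSO, 31.7 in WT and 3.09 in KO for Ccl8 and 53.3 and 12.3 for Ccl7. Under DMXAA the means were 1266 in WT and 945 in KO for Ccl8 and 959 and 1224 for Ccl7. In RPM the sign for Ccl8 was the opposite, at -3.56. The negative calls were Cxcl1, which recruits neutrophils, at -2.0 (SE 0.53, adjusted p = 0.031) and Ccl3 at -0.34 (SE 0.10, adjusted p = 0.043). Ccl3 lost the call in 10 and Cxcl1 in 7 of the 12 fits with 1 library left out, and Cxcl1 lost it with either replicate block.

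NF-kappaB targets and inhibitors showed the opposite sign to the interferon genes. Of 29 tested, none was called positive and 10 (34.5%) were called negative, against 5.37% and 3.24% over all tested genes. The list median was -0.20, and the point estimate was negative in 24. At an unadjusted p below 0.05 limma gave 3 positive members, and edgeR and DESeq2 each called 1. The median KO minus WT difference was 0.15 under DMSO and -0.12 under DMXAA. In 8 of the 10 called genes the KO mean was above WT under vehicle and below it under DMXAA, and 7 of the 10 had a negative mean response in both genotypes. The KO and WT libraries overlapped in 1 of the 10 under DMSO and in 3 under DMXAA. Tnfaip3, which encodes the feedback inhibitor A20, had 1680, 1807 and 1656 normalized counts in WT and 2238, 2276 and 2278 in KO under DMSO, and 1126, 1144 and 1155 against 856, 825 and 991 under DMXAA. Its libraries did not overlap in either treatment and the order of the genotypes was reversed. The interaction of Tnfaip3 was -0.76 (SE 0.10, adjusted p = 0.00024). Cd83, a maturation marker, gave -0.94 (SE 0.12, adjusted p = 0.00025), with means of 2057 in WT and 3562 in KO under DMSO and 419 and 376, overlapping, under DMXAA. The inhibitor Nfkbie gave -0.89 (SE 0.16, adjusted p = 0.0024), the subunit Relb -0.59 (SE 0.10, adjusted p = 0.0015) and the inhibitor Nfkbia -0.40 (SE 0.11, adjusted p = 0.036). Nfkbia lost its call in 9 of the 12 fits with 1 library left out. Tnf, a target listed with the cytokines, gave -0.60 (SE 0.12, adjusted p = 0.006).

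**Figure D2:**
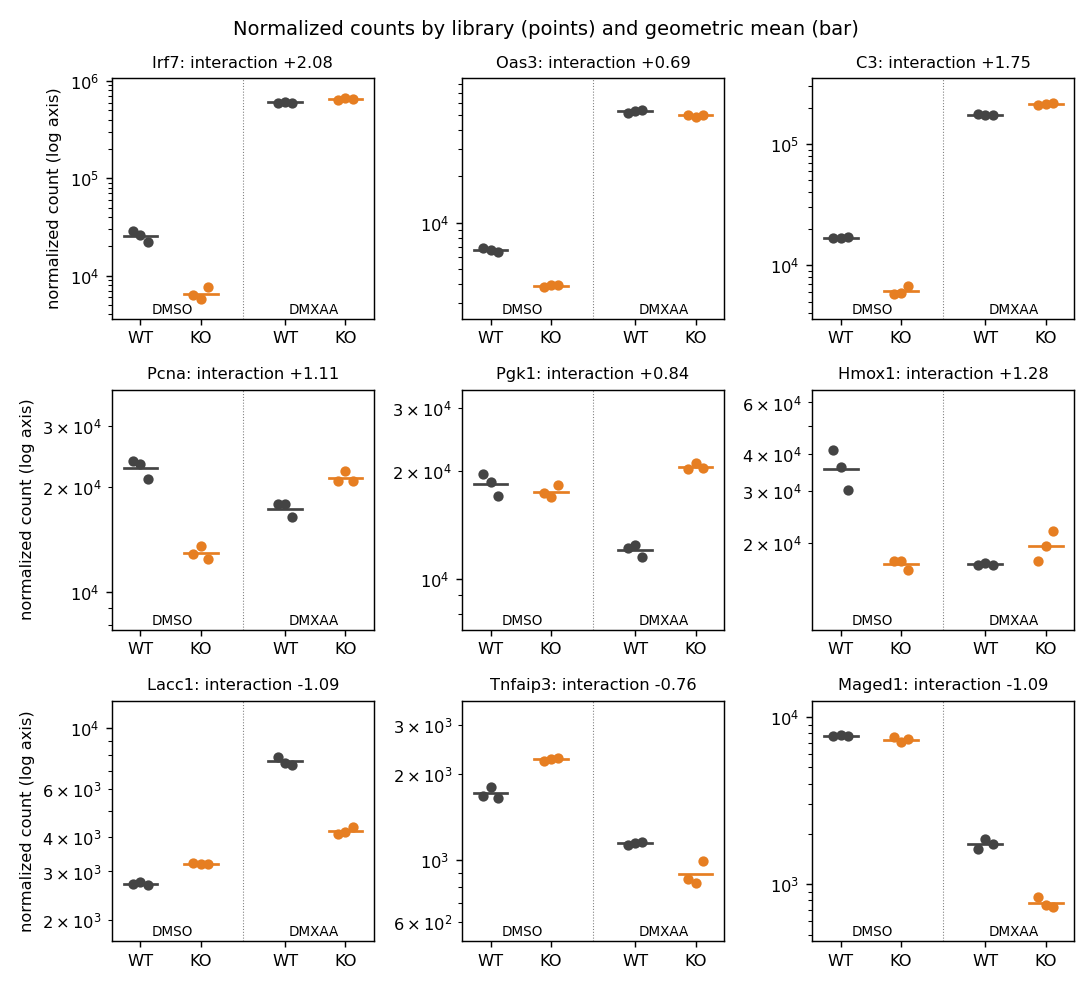
Normalized counts on a log axis for 9 genes, with each library as a point and the geometric mean of the group as a bar, WT in dark grey and KO in orange. Irf7, Oas3, C3 and Pcna are low in KO under DMSO and near or above WT under DMXAA, while Tnfaip3 and Lacc1 are high in KO under DMSO and low under DMXAA.

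Receptors of microbial products went in both directions. Of 28 tested, 3 (10.7%) were called positive and 5 (17.9%) negative, against 5.37% and 3.24% over all tested genes. Tlr2, the surface receptor of lipopeptides, had 3946, 4293 and 4391 normalized counts in WT and 5304, 5129 and 5692 in KO under DMSO, and 1579, 1391 and 1510 against 986, 953 and 1044 under DMXAA. KO was above WT under vehicle and below it under DMXAA, without overlap, and the interaction was -0.94 (SE 0.09, adjusted p = 3.2e-05). Tlr9, the endosomal receptor of unmethylated DNA, had 482, 609 and 624 in WT and 765, 809 and 781 in KO under DMSO, and 4053, 4159 and 4524 against 2794, 2762 and 2850 under DMXAA. Its order was reversed in the same way, with an interaction of -1.06 (SE 0.12, adjusted p = 9.2e-05), although its mean response was positive in both genotypes. Unc93b1, the chaperone of the endosomal receptors, gave -0.23, Tlr7, a receptor of single-stranded RNA, -0.32, and Nlrp3, the inflammasome sensor, -0.42 (adjusted p = 0.034, 0.043 and 0.0024). Tlr13, a receptor of bacterial ribosomal RNA, gave 0.43 (SE 0.06, adjusted p = 0.00033) and Tlr8 0.26 (SE 0.06, adjusted p = 0.019). With 1 library left out, Unc93b1 and Tlr7 each lost the call in 9 of 12 fits and Tlr8 in 3, and Tlr8 also lost it after rescaling to the same total. Tlr7 lost it with a replicate block by title number and Unc93b1 with a block by the numeral in the library name.

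Complement genes went in both directions. C3 (chr17:57203970-57228136, minus strand), the protein on which all complement branches converge, had the smallest p of all tested genes. Its normalized counts were 16615, 16742 and 17220 in WT and 5784, 5889 and 6751 in KO under DMSO, and 175783, 174305 and 173277 against 208890, 213552 and 217319 under DMXAA. Every KO library lay below WT under vehicle and above it under DMXAA. The interaction of C3 was 1.75 (SE 0.07, adjusted p = 7.9e-09), with mean responses of 3.65 in WT and 5.40 in KO. Cfb, factor B of the alternative branch, gave 1.99 (SE 0.24, adjusted p = 0.00013), from means of 1506 and 357 under DMSO and 104135 and 95442 under DMXAA. KO stayed below WT in both, and in RPM the sign for Cfb was the opposite, at -116. The 3 chains of C1q, which start the classical branch, were all negative. C1qc had 35981, 34037 and 32939 in WT and 31341, 31034 and 30333 in KO under DMSO, and 27830, 29471 and 26089 against 16840, 17780 and 16456 under DMXAA, so that a small gap became a large one, without overlap in either. The interactions were -0.56 (SE 0.07, adjusted p = 0.0002) for C1qc, -0.42 (SE 0.06, adjusted p = 0.00064) for C1qb and -0.60 (SE 0.09, adjusted p = 0.00091) for C1qa. Of the 20 complement genes tested, 5 (25%) were called positive and 4 (20%) negative, against 5.37% and 3.24% over all tested genes.

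Of 32 genes of programmed cell death tested, 4 (12.5%) were called positive and 1 (3.13%) negative, where all tested genes gave 5.37% and 3.24%. Ripk3 and Mlkl, the kinase and the pore-forming effector of necroptosis, were both among them. Ripk3 had 1774, 1728 and 1644 normalized counts in WT and 920, 960 and 806 in KO under DMSO, and 2562, 2691 and 2374 against 2480, 3023 and 2868 under DMXAA, where the libraries overlapped. The interaction was 1.07 (SE 0.12, adjusted p = 7.4e-05) for Ripk3 and 0.58 (SE 0.09, adjusted p = 0.00071) for Mlkl. Mlkl had means of 1615 in WT and 870 in KO under DMSO and 16532 and 13354 under DMXAA, without overlap in either. In RPM the sign for Mlkl was the opposite, at -31.4. Ripk1, the upstream kinase, gave -0.21 (SE 0.06, adjusted p = 0.036) and lost its call in 9 of the 12 fits with 1 library left out and with a replicate block by title number.

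DNA replication genes were low in KO under vehicle and, for some members, nearer to WT under DMXAA. All 51 tested genes of the S phase list had a KO mean below WT under DMSO, and 45 had one under DMXAA. The interaction was called positive in 12 (23.5%, against 5.37% over all tested genes), with a median of 0.23. It was called negative in none (1 at an unadjusted p below 0.05 in limma, none with edgeR or DESeq2), against 3.24% over all tested genes. The median KO minus WT difference was -0.81 under DMSO and -0.54 under DMXAA. Pcna, the sliding clamp of DNA polymerases, had 23858, 23336 and 21066 normalized counts in WT and 12874, 13565 and 12438 in KO under DMSO, and 17829, 17861 and 16421 against 20822, 22210 and 20892 under DMXAA. KO was below WT under vehicle and above it under DMXAA, without overlap, and the interaction was 1.11 (SE 0.08, adjusted p = 1.7e-06). Mcm6 had means of 12889 in WT and 7562 in KO under DMSO and 8846 and 7725 under DMXAA, and an interaction of 0.57 (SE 0.09, adjusted p = 0.0014). The licensing factor Cdc6 gave 1.04 (SE 0.29, adjusted p = 0.037) and lost its call in 8 of the 12 fits with 1 library left out, and when libraries were rescaled to the same total.

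Of 62 mitosis genes tested, 4 (6.45%) were called positive and 4 (6.45%) negative, near the shares of 5.37% and 3.24% over all tested genes, and the median of -0.04 changed sign in 6 of the alternative fits, although 59 of the 62 had a KO mean below WT under DMSO and 59 under DMXAA. Tpx2, a spindle assembly factor, gave 0.82 (SE 0.07, adjusted p = 1.3e-05). Ccnb2, a mitotic cyclin, had 474, 492 and 338 normalized counts in WT and 193, 212 and 201 in KO under DMSO, and 65.5, 67.5 and 76.7 against 9.43, 3.89 and 6.95 under DMXAA. The KO libraries were lower in both treatments and far lower in ratio under DMXAA, and the interaction was -2.17 (SE 0.35, adjusted p = 0.0013). In RPM the sign for Ccnb2 was the opposite, at 1.90. Among 33 genes of homologous recombination and Fanconi anaemia only Fancc was called, at -0.93 (SE 0.27, adjusted p = 0.046), and among 34 genes of alkylation, mismatch and base excision repair only Pcna was. The p53 targets had 2 positive (7.69%) and 5 negative (19.2%) calls of 26, beside 5.37% and 3.24% over all tested genes, with a median of -0.19. Cdkn1a, the inhibitor p21, gave -0.36 (SE 0.09, adjusted p = 0.023), and Phlda3, an inhibitor of AKT, -1.17 (SE 0.30, adjusted p = 0.027). With 1 library left out, Fancc lost its call in 9 of 12 fits, Phlda3 in 5 and Cdkn1a in 3.

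**Figure D3:**
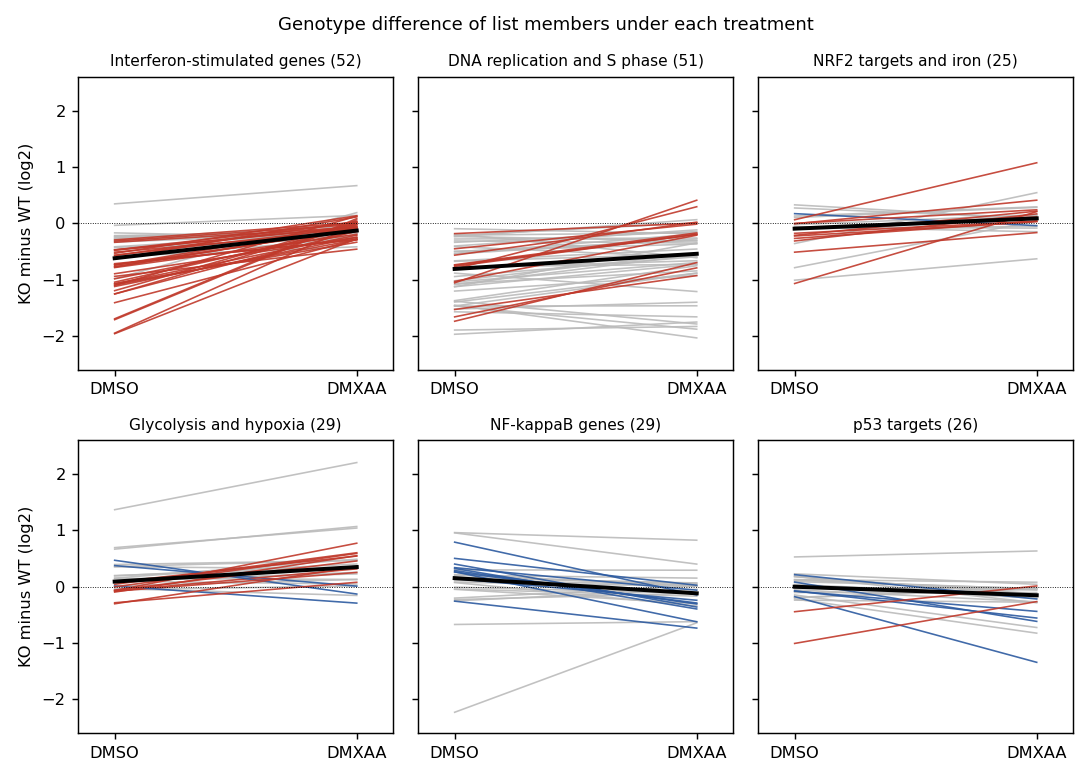
KO minus WT in log2 under DMSO (left) and DMXAA (right) for each tested member of 6 lists, as a line coloured red where the interaction was called positive, blue where negative and grey otherwise (values past 2.5 drawn at 2.5), with the list median in black. The median of the interferon-stimulated genes runs from -0.62 to -0.13, and that of the NF-kappaB genes from 0.15 to -0.12.

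Antioxidant genes under the factor NRF2 had 11 positive calls (44%) and 1 negative call (4%) of 25 tested, with a median of 0.24. All tested genes gave 5.37% and 3.24%. In 9 of the 11, the KO mean was below WT under vehicle and above it under DMXAA. The KO and WT libraries overlapped in 3 of the 11 under DMSO and in 4 under DMXAA. Hmox1, which degrades heme, had 41488, 36125 and 30176 normalized counts in WT and 17375, 17379 and 16183 in KO under DMSO, and 16851, 17096 and 16819 against 17379, 19569 and 21976 under DMXAA. The WT libraries under vehicle were spread over a wider range than those of the other groups and all lay above KO, and under DMXAA all KO libraries lay above WT. The interaction of Hmox1 was 1.28 (SE 0.14, adjusted p = 5.3e-05). Prdx1, a peroxiredoxin, gave 0.43 (SE 0.08, adjusted p = 0.0033) and Gclm, a subunit of the enzyme that starts glutathione synthesis, 0.48 (SE 0.09, adjusted p = 0.0055). The negative call was Nfe2l2, the NRF2 transcript itself, at -0.21 (SE 0.06, adjusted p = 0.042), which did not pass with either replicate block or in 11 of the 12 fits with 1 library left out.

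In glycolysis genes the genotype gap was mostly seen under DMXAA. Of 29 genes of glycolysis and hypoxia tested, 10 (34.5%) were called positive and 3 (10.3%) negative, with a median of 0.21. All tested genes gave 5.37% and 3.24%. In 8 of the 10 positive calls the KO and WT libraries overlapped under DMSO, and in none under DMXAA, where every one was higher in KO. Over all tested genes the libraries overlapped in 65.3% under DMSO and in 62.8% under DMXAA. Pgk1, a kinase that yields ATP in glycolysis, had 19562, 18626 and 17007 normalized counts in WT and 17367, 16927 and 18275 in KO under DMSO, and 12170, 12400 and 11529 against 20187, 21089 and 20403 under DMXAA. The libraries of the genotypes overlapped under vehicle and were separate under DMXAA. The interaction of Pgk1 was 0.84 (SE 0.07, adjusted p = 1.3e-05), with mean responses of -0.33 in WT and 0.51 in KO. Tpi1 gave 0.60 (SE 0.09, adjusted p = 0.00054), Gapdh 0.56 (SE 0.10, adjusted p = 0.002), Eno1 0.65 (SE 0.10, adjusted p = 0.001) and Ldha 0.39 (SE 0.08, adjusted p = 0.0055). Pkm, the last kinase of the pathway, gave 0.66 (SE 0.06, adjusted p = 1.7e-05). The negative calls were Hk1, a hexokinase, at -0.30 (SE 0.05, adjusted p = 0.0024), Pfkm, and Vegfa, a hypoxia target, at -0.37 (SE 0.08, adjusted p = 0.013). None of 40 oxidative phosphorylation genes was called by limma or edgeR, 2 were by DESeq2, and 3 had an unadjusted p below 0.05 in limma, with Sdha the lowest at -0.20 (SE 0.06, adjusted p = 0.051).

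Ddit3, the stress factor CHOP, had 2252, 2220 and 2195 normalized counts in WT and 1674, 1818 and 1762 in KO under DMSO, and 8955, 9288 and 8436 against 12103, 12789 and 12603 under DMXAA. KO was below WT under vehicle and above it under DMXAA, and the interaction was 0.84 (SE 0.07, adjusted p = 1.1e-05). Nupr1, another stress-induced gene, gave 0.92 (SE 0.16, adjusted p = 0.0018), whereas Trib3, a target of the same pathway, gave -0.98 (SE 0.17, adjusted p = 0.0022). Trib3 was higher in KO under both treatments, with means of 76.4 in WT and 268 in KO under DMSO and 425 and 756 under DMXAA. In RPM its sign was the opposite, at 1.19. The heat shock list had 4 positive (18.2%) and 2 negative (9.09%) calls of 22, beside 5.37% and 3.24% over all tested genes. Hspa1a had 1011, 990 and 938 in WT and 146, 152 and 183 in KO under DMSO, and 632, 612 and 621 against 237, 198 and 220 under DMXAA. KO stayed below WT in both treatments, with a KO to WT ratio nearer to 1 under DMXAA, and the interaction was 1.10 (SE 0.14, adjusted p = 0.00028). Hspa1b, its near-identical copy, gave 1.07 (SE 0.15), and reads may have been shared between them. The constitutive chaperones Hspa8 and Hsp90ab1 gave -0.33 (SE 0.07) and -0.27 (SE 0.06). Dnajb4, a heat shock protein 40 not on the list, gave 1.05 (SE 0.09, adjusted p = 1.1e-05).

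Lipid handling genes gave 6 positive (25%) and 3 negative (12.5%) calls of 24, and lysosomal genes 9 (23.1%) and 5 (12.8%) of 39, where all tested genes gave 5.37% and 3.24%. Cd36, a scavenger receptor for oxidised lipid, had 144867, 154182 and 138451 normalized counts in WT and 73158, 76737 and 66449 in KO under DMSO, and 57406, 56246 and 55996 against 52310, 52432 and 57456 under DMXAA. KO lay far below WT under vehicle and overlapped with it under DMXAA, and the interaction was 0.95 (SE 0.08, adjusted p = 9.2e-06). Lpl, lipoprotein lipase, gave 0.87 (SE 0.08, adjusted p = 1.9e-05) and Plin2, which coats lipid droplets, 0.63 (SE 0.07, adjusted p = 5.3e-05). Cd5l, a secreted scavenger protein, gave -0.43 (SE 0.07, adjusted p = 0.0014) with KO below WT under both treatments, and Scd2, a desaturase, -1.32 (SE 0.16, adjusted p = 0.00017). Ctsd, the aspartic protease of lysosomes, gave 0.45 (SE 0.06, adjusted p = 0.00028). Spp1, the secreted phosphoprotein osteopontin, had 601772, 616450 and 578673 in WT and 309596, 314932 and 313889 in KO under DMSO, and 291690, 284495 and 301538 against 283002, 263498 and 248429 under DMXAA. KO was lower without overlap in both, and the interaction was 0.79 (SE 0.06, adjusted p = 8.2e-06).

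**Figure D4:**
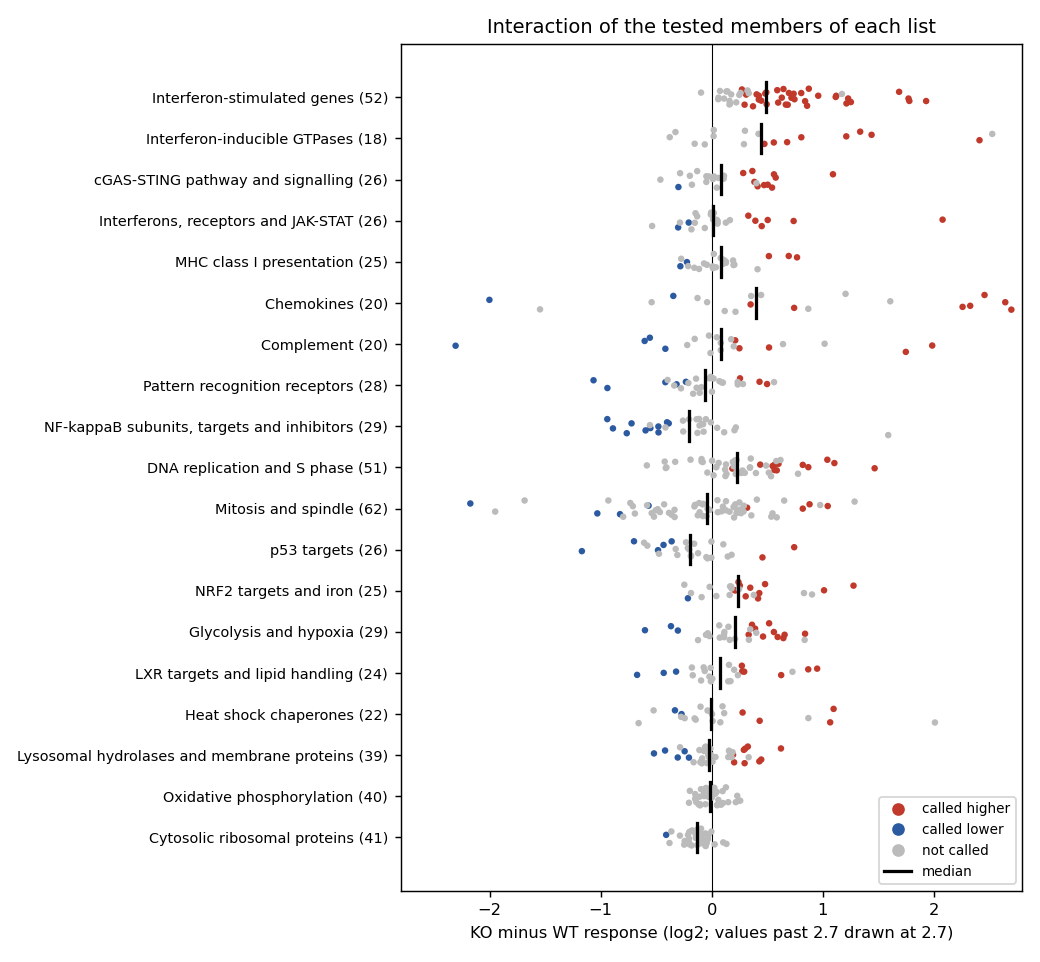
Interaction in log2 (horizontal) of each tested member of 19 lists, with the number of tested members in brackets, points red where called positive, blue where called negative and grey otherwise, and the median as a black bar (values past 2.7 are drawn at 2.7). Interferon-stimulated genes sit right of zero in 51 of 52 cases, NF-kappaB genes are left of zero in 24 of 29, and no oxidative phosphorylation gene is coloured.

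Other genes with the smallest p included membrane and secreted proteins of macrophages. Adam8, a metalloprotease, had 216129, 219922 and 205040 normalized counts in WT and 148457, 147187 and 140731 in KO under DMSO, and 144840, 149102 and 143954 against 178377, 183380 and 182145 under DMXAA. The order of the genotypes was reversed without overlap, and the interaction was 0.87 (SE 0.05, adjusted p = 3.1e-07). Ms4a6b, a membrane protein of the MS4A family, had means of 2495 and 986 under DMSO and 41526 and 41157, overlapping, under DMXAA, and an interaction of 1.33 (SE 0.07, adjusted p = 1.2e-07). Cx3cr1, the fractalkine receptor and a monocyte marker, had 2265, 2458 and 2475 in WT and 2276, 2530 and 2536 in KO under DMSO, and 241, 208 and 208 against 482, 499 and 531 under DMXAA. Here the groups overlapped under vehicle and KO was higher under DMXAA, and the interaction was 1.17 (SE 0.11, adjusted p = 2.4e-05). The other 4 tested monocyte markers were not called.

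Predicted-gene, Rik and identifier-only symbols were left out of the ranking of negative calls, and among the others Lacc1 had the smallest p. Lacc1 (chr14:77024200-77036904, minus strand), a metabolic enzyme of macrophages, had 2691, 2737 and 2675 normalized counts in WT and 3209, 3182 and 3201 in KO under DMSO, and 7894, 7501 and 7371 against 4108, 4191 and 4350 under DMXAA. KO was slightly above WT under vehicle and far below it under DMXAA, and the interaction was -1.09 (SE 0.06, adjusted p = 2.8e-07). Maged1, a MAGE family adaptor, had 7745, 7824 and 7678 in WT and 7575, 7087 and 7353 in KO under DMSO, and 1623, 1874 and 1729 against 834, 753 and 733 under DMXAA. A narrow gap under vehicle became a wide one, and the interaction was -1.09 (SE 0.09, adjusted p = 8.2e-06). Pde4b, a phosphodiesterase of cyclic AMP, gave -1.02 (SE 0.11, adjusted p = 5.5e-05), and Ephx1, an epoxide hydrolase, -1.0 (SE 0.10, adjusted p = 4.7e-05). Hpse, heparanase, had 8662, 8405 and 8737 in WT and 13291, 12676 and 12848 in KO under DMSO, and 9384, 9523 and 9230 against 9771, 9921 and 9755 under DMXAA. In Hpse the gap above WT narrowed, and the interaction was -0.52 (SE 0.05, adjusted p = 3.9e-05). The other genes among the 12 smallest p were the small GTPase Arl5c (-0.99), the GTPase activator Arhgap19 (-0.89), the semaphorin receptor Plxnd1 (-0.78), the ciliary transport gene Ttc21b (-0.99) and the adhesion receptor Adgre4 (-1.26). In Arl5c, Arhgap19, Ttc21b and Adgre4 the DMXAA difference was the larger, with all KO libraries below all WT libraries there. In Plxnd1 KO was above WT under vehicle and below it under DMXAA.

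The largest fitted values came from genes near zero in a group. Zfp618, a zinc finger gene (interaction 5.92, SE 0.63), had 1717 reads over the WT libraries and 1763 over the KO libraries under DMSO. Under DMXAA it had 0 reads in all 3 WT libraries and 54, 156 and 27 in KO, at least 72.4-fold higher in KO against a limit of 3 reads over the WT group. Lipg, endothelial lipase (interaction 2.83, SE 0.50), had no read in KO under DMSO and 23 over the WT libraries, so WT was at least 7.54-fold higher, and 3310 and 3365 reads in KO and WT under DMXAA. Gbp11 (interaction 2.41, SE 0.54) had 2 reads in KO against 28 in WT under DMSO, a ratio of 0.0726 (95% counting interval 0.00838 to 0.288). Its fitted value lost the call with edgeR and with a pseudocount of 5. Each of these fitted values depends on the pseudocount and is no bound. Among negative calls with a mean of at least 100, predicted-gene, Rik and identifier-only symbols left out, the most negative were the actin-binding Dmtn (-2.66) and Ccnb2 (-2.17). The scavenger receptor Marco (-1.87), the orphan receptor Gprc5c (-1.85), Fcrl5 (-1.83) and Clic5 (-1.82) followed. Dmtn lost its call without WT DMSO replicate 3, KO DMSO replicate 2 or WT DMXAA replicate 3. Marco had 266, 364 and 313 normalized counts in WT and 205, 273 and 281 in KO under DMSO, overlapping, and 168, 156 and 95.9 against 28.3, 26.3 and 32.8 under DMXAA, which were separate.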

How the data were processed

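Bulk RNA-seq of 12 libraries of mouse bone marrow-derived macrophages (4 groups of 3) was analysed from 4 deposited tables of 6 libraries each. Reads were aligned with HISAT2 and counted with featureCounts on mm10, per the submitters' processing notes, and no source used here gives their versions. The library kit was strand-specific, per the labels' protocols. The deposited values are a normalized signal, and how the authors scaled it is not stated. In each column the values are multiples of 1 step, and dividing by it gave whole reads (tolerance 0.01) for 100% of values in every column, which gives 79482003 to 98135869 reads per library, so that 3 reads equal 0.0306 to 0.0377 RPM. All value columns were mapped to a library.

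A model with 4 group means was fitted with limma 3.58.1 (R 4.3.3, trend on) to log2 of the normalized count plus 1, over 12729 genes averaging 10 or more, and Benjamini-Hochberg adjusted p below 0.05 was called. Since fold changes are on this scale, differences of low genes within 1 treatment are understated. The interaction of a gene low in only 1 treatment can move either way. Over the alternative fits Lipg ran from 1.17 to 5.73 and Zfp618 from 3.71 to 9.39. The fit was tested on simulated data. Alternatives were edgeR 4.0.16 and DESeq2 1.42.0 on the recovered reads, other pseudocounts, filters and scalings, the genotype tables, replicate blocks and left-out libraries. Named genes are Mgmt, the called genes ranked 1 to 12 by p for either sign, the 6 highest and 6 lowest among those averaging 100 or more, and in each list the 3 members with the smallest p and the first of each sign. Predicted-gene, Rik and identifier-only symbols were left out of these rankings. Other named genes were chosen after their values were seen. The comparison and lists were chosen with earlier results of these data known. Gene positions are from GENCODE and promoters from RefSeq (GRCm38.p6).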

Additional observations from a re-analysis of the deposited data

Results flagged for a closer look

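The response to DMXAA differed between the genotypes, by the test of the difference itself, in 1095 genes. Listed here are 24 of them, the 12 of either sign ranked first by p. Predicted-gene, Rik and identifier-only symbols were left out of the ranking. The positive interactions were 1.75 for C3, 1.33 for Ms4a6b, 1.22 for Ifi209, 0.87 for Adam8, 2.08 for Irf7, 1.11 for Pcna, 0.69 for Oas3, 1.44 for Tgtp2, 0.79 for Spp1, 0.95 for Cd36, 0.84 for Ddit3 and 1.05 for Dnajb4. The negative ones were -1.09 for Lacc1, -1.09 for Maged1, -0.99 for Arl5c, -0.89 for Arhgap19, -0.94 for Tlr2, -0.52 for Hpse, -1.0 for Ephx1, -1.02 for Pde4b, -0.78 for Plxnd1, -1.06 for Tlr9, -0.99 for Ttc21b and -1.26 for Adgre4.

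Genes listed in the DMXAA table alone could not enter the interaction. Of the 9 whose normalized counts averaged 100 or more, KO and WT libraries did not overlap in 5 and did in 4, where they overlapped under DMXAA in 62.8% of the genes tested for the interaction. Of these, 9030619P08Rik (mean 200.4) had 0, 1 and 0 reads in WT and 195, 408 and 625 in KO. Sct, the hormone secretin (mean 103), had 30, 87 and 66 in WT and 108, 207 and 128 in KO. Spats2l (mean 112) had 135, 249 and 159 in WT and 36, 45 and 42 in KO. Fam3b (mean 195) and A630012P03Rik (mean 184) were also lower in reads in every KO library. None of these was tested.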

How the results depend on the processing

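The 1095 calls numbered 1008 to 1115 with other pseudocounts and filters, 1085 with upper quartile scaling, 1107 with TMM scaling, 1095 from the genotype tables, 1123 with edgeR, 1494 with DESeq2, 833 without the trend and 1404 with array weights. Rescaling to the same total gave 1230, of which 482 were positive and 748 negative. With 1 library left out, calls numbered 830 to 1112, positive calls 553 to 704 and negative calls 271 to 408, the lowest total and negative count being without KO DMSO replicate 1 and the lowest positive count without KO DMXAA replicate 3. Of the 1095, 678 were called in the same direction under all 14 alternatives that keep every library, and 673 in all 12 fits with 1 left out. None of the 205 named called genes changed sign in these fits, and 14 to 26 of them lost the call when 1 library was left out. With a replicate block by title number 989 genes were called (628 positive, 361 negative), and with a replicate block by the numeral in the library name 1008 (646 and 362). Deviations of libraries sharing a title number correlated at -0.11 to 0.11 (median 0.02) over 18 pairs, and those of other pairs at -0.14 to 0.15 (median 0.01). Those sharing a numeral correlated at -0.06 to 0.12 (median 0.03) over 14 pairs, and other pairs at -0.14 to 0.15 (median -0.01). With 3 libraries per group, these values do not show that the numbers pair the samples and cannot exclude it. The cause of the differences between fits was not tested. List medians kept their sign in every fit for interferon-stimulated (0.42 to 0.57), NF-kappaB (-0.27 to -0.14), S phase (0.16 to 0.33), NRF2 (0.17 to 0.25) and glycolysis genes (0.14 to 0.29).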

Other observations

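Other gene families were chosen after their values were seen, so their counts are descriptions, to be read beside 5.37% positive and 3.24% negative calls over all tested genes. Of 12 tested PYHIN (Ifi200) genes, which bind DNA in the nucleus and cytosol, 10 were called positive, with a median of 0.80. In 9 of the 10 the KO mean was below WT under DMSO and above it under DMXAA. The KO and WT libraries overlapped under DMXAA in 6 of the 10, so the higher mean there was mostly not a separation. Ifi203, Ifi204 and Mndal are also among the cGAS-STING calls above. Of 8 tested MS4A membrane proteins 5 were called positive (Ms4a6b, Ms4a6d, Ms4a4c, Ms4a6c and Ms4a4a), with a median of 0.79.

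Actin filament proteins had 14 positive and 2 negative calls of 40, with a median of 0.10. Circadian genes had 3 negative calls (Tef, Dbp and Bhlhe40) and 1 positive (Nfil3) of 17, with a median of -0.26.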
